A study of Homo sapiens with 14 samples.

Results

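RH30 is a human alveolar rhabdomyosarcoma line, a muscle-lineage tumour that carries the PAX3-FOXO1 fusion transcription factor. The libraries described are the 4 RH30 libraries of a compound experiment, out of 14 in the series, and were chosen by their treatment labels. The cells received QC6352 at 200 nM (2 libraries) or the vehicle, DMSO at 0.1% (2 libraries). The labels' treatment sentence ends with 72 h, and whether that time covers the compound is not explicit. Libraries were made from 100000 cells with 30 min of Tn5 digestion and 12 cycles of PCR. The other 10 libraries, used only to read the same sites elsewhere, are RH30 with a hairpin against KDM4B (shKDM4B-813 or shKDM4B-814) or a control hairpin (shCtrl), and LHCN myoblasts with PAX3-FOXO1 or an empty vector, 2 of each. All are cultures of established lines. Nothing in the labels says that replicates came from separate cultures, and p-values then measure the spread of these libraries alone, which may be technical.

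QC6352 is an inhibitor of the KDM4 family of histone demethylases. These enzymes remove methyl groups from lysines of histone H3 that mark, when methylated, compacted heterochromatin or the bodies of transcribed genes. In alveolar rhabdomyosarcoma KDM4B has been studied as a partner in transcription driven by PAX3-FOXO1. ATAC-seq reads accessible chromatin through the insertion of adapters by the Tn5 transposase into DNA that is not wrapped or otherwise covered, so it reports access to DNA and not the histone marks themselves. The comparison asks which accessible sites of the tumour line differ when the KDM4 enzymes are inhibited.

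The deposited lists held 111272 and 176899 peaks with QC6352, against 105136 and 129337 with DMSO. Each was trimmed to its 105136 strongest peaks by −log10 q, and overlapping peaks were merged into 170777 regions. Trimming set different limits: the weakest peak kept had a −log10 q of 3.63 and 6.75 with QC6352, against 2.54 and 4.83 with DMSO. The kept peaks covered 48.8 and 71.6 Mb with QC6352, against 53.7 and 60.2 Mb with DMSO. The QC6352 libraries resembled each other less than the DMSO libraries did. Over the 48514 regions with a peak in all 4 libraries, the normal scores of the within-list rank correlated across regions at r = 0.65 between the QC6352 libraries and r = 0.89 between the DMSO libraries, and at 0.57 to 0.62 between the groups. Regions found in a single library numbered 17387 and 22099 with QC6352, against 15083 and 16417 with DMSO. The shCtrl libraries listed fewer of those shared regions than the libraries with a KDM4B hairpin, at 81.1% and 81.6% against 90.3% to 91.8%. Over all regions the shares were nearer, at 40.4% and 41.4% against 42.1% to 43.5%. The read depth behind the lists is unknown. All peak names carry the same tag, 150M, and whether reads were sampled to a common number before peak calling is not settled here. No hg19 gene annotation or genome was used here, so the sites are given by position, and markers of the muscle lineage or of other cell types were not checked.

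A region was called gained if both QC6352 libraries and neither DMSO library had a peak there, and lost in the reverse case. QC6352 was accompanied by 11059 gained regions, which is 6.48% of all regions, and by 12307 lost regions, which is 7.21%. Most of them were weak sites. The lower of the percentiles in the group that held the peak, where 100 is the strongest peak of a list, had a median of 23.3 for gained and 30.7 for lost regions. Only 106 gained and 127 lost regions reached 80 or more. Gained regions had a median width of 472 bp and lost regions of 355 bp, against 804 bp for the regions present in all 4 libraries. The median distance to the nearest shared region was 6896 bp for gained and 9954 bp for lost regions, and 15.9% and 18.2% of them lay within 1 kb of one, as did 16.7% of regions found in a single library. With 2 libraries against 2, no single region can have an exact permutation p below 0.33, so these calls carry no test. In a bulk culture, fewer cells with an open site and less access per cell cannot be told apart.

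The balance of gains and losses changed with the list limits. The lists as deposited gave 16056 gained and 10627 lost regions, whereas a limit of −log10 q of 10 gave 3778 gained and 8345 lost. At that limit, 1576 of the 11059 gained and 3275 of the 12307 lost regions were still called. Leaving out the first or second QC6352 library gave 33676 or 32499 gained regions, and leaving out the second gave 20082 lost regions. Leaving out the first or second DMSO library gave 32170 or 28799 lost regions. Among the gained regions, 1390 (12.6%) had a weaker peak below the trimming limit in the deposited lists of DMSO, all of them in the second library, since the first DMSO list was not trimmed. Among the lost regions, 3328 (27.0%) had such a peak in the deposited lists of QC6352, 3242 of them listed in the second library and 185 in the first.

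Whether a site was called followed its strength closely. Of 10991 regions held by both QC6352 libraries at a lower percentile under 20, 44.4% had no peak in either DMSO library. That share was 28.3% at 20 to 40, 14.2% at 40 to 60, 5.01% at 60 to 80 and 1.28% at 80 to 90. At 90 to 100 it was 0.169%, or 10 of 5926 regions. Regions held by both DMSO libraries gave similar shares, with 44.7% absent from both QC6352 libraries under 20, 31.8% at 20 to 40, 17.8% at 40 to 60, 5.87% at 60 to 80 and 1.23% at 80 to 90. Of the 8710 DMSO regions at 90 to 100, 17 (0.195%) were absent from both QC6352 libraries. Strong accessible sites of RH30 thus remained listed with the compound, with few exceptions. The percentile belongs to the same lists as the call, so this is a description of the called sites and not a test.

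**Figure D1:**
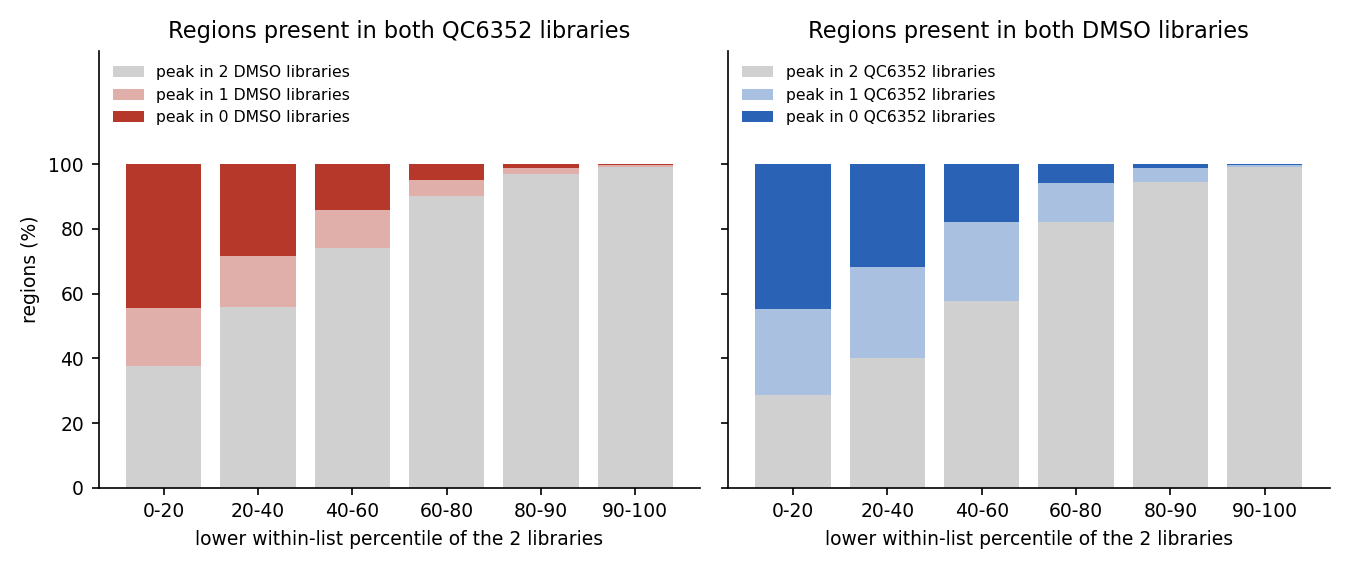
Share of regions (%) with a peak in 0, 1 or 2 libraries of the other group, by the lower within-list percentile of the regions held by both QC6352 libraries (left) or both DMSO libraries (right). In the weakest class 44.4% of QC6352 regions and 44.7% of DMSO regions had no peak in the other group, against 0.169% and 0.195% in the strongest class.

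The strongest gained site lay at chr12:60366551-60367899 (hg19, counted from 1, as for all positions). The authors' fold value of its peak, a ratio over local background that belongs to its own list, was 19.3 and 17.6 in the QC6352 libraries. No peak was listed in the first DMSO library, and a weak one of 4.05 was listed in the second. It stood at percentiles 97.8 and 96.4 of the QC6352 lists. The second site, at chr3:86465484-86465891, had folds of 16.4 and 17.6 with QC6352 and no listed peak with DMSO. The third, at chr1:78804978-78806578, had 14.9 and 15.4 with QC6352, against no peak and 3.72 with DMSO. These 3 sites were among the strongest peaks of both QC6352 libraries, and the groups did not overlap, which the calling rule itself requires.

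Of the 10 leading gained sites, 2 more were on chromosome 1, at chr1:106764949-106765419 with folds of 14.9 and 15.0, and at chr1:101836708-101837293 with folds of 13.8 and 14.7. Chromosome 11 also held 2, chr11:56700166-56700699 with 14.2 and 17.8, and chr11:105590131-105590524 with 13.1 and 15.2. Those on chromosome 7 were chr7:87203776-87204269, with 13.8 and 17.1, and chr7:94443083-94443539, with 13.8 and 15.0. The last was at chr18:30502805-30503455, with 16.0 and 14.5. None of these 7 sites had a peak of any strength in either deposited DMSO list.

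The 10 leading lost sites stood at percentiles 90.5 to 96.6 of the DMSO lists, much as the leading gained sites did in the QC6352 lists, at 90.7 to 97.8. The first lay at chr17:18966746-18967017, with no listed peak in either QC6352 library, against folds of 30.6 and 28.4 with DMSO. The second, at chr7:44029576-44030213, was likewise not listed with QC6352 and had 28.6 and 29.4 with DMSO. The third, at chr18:45954782-45955271, had no peak in the first QC6352 library and 4.51 in the second, against 27.2 and 30.4 with DMSO. It was the 1 leading lost site with any peak in a deposited QC6352 list.

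The other 7 leading lost sites had no listed peak with QC6352. The site chr2:26474754-26475161 had folds of 27.6 and 25.3 with DMSO, and the site chr3:149888894-149889282 had 29.9 and 25.0. On chromosome 1 the sites were chr1:68169788-68170430, with 29.9 and 23.7, and chr1:144022508-144022817, with 24.2 and 22.6. Further sites were at chr5:139719180-139719845 with 24.2 and 25.3, at chr14:70154956-70155394 with 23.9 and 22.3, and at chr6:4506489-4506841 with 21.9 and 21.3. Of the 10 leading sites in each direction, 8 or more gained and 9 or more lost sites were still called under each of the 13 other settings tried. These sites were chosen as the strongest of the same lists. Trimming by fold gave the same regions, and leaving out a library mostly loosens the rule, so the count is a description and not a test.

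The same 20 sites were read in libraries that had no part in choosing them. The leading gained sites were listed in both shKDM4B-813 libraries at 10 of 10, in the shKDM4B-814 libraries at 9 and 6 of 10, and in the shCtrl libraries at 3 and 0 of 10. The site at chr11:105590131-105590524 had folds of 43.4 and 34.0 with shKDM4B-813 and 14.3 and 10.7 with shKDM4B-814, against 6.31 and no peak with shCtrl. The site at chr3:86465484-86465891 had 13.0 and 10.7 with shKDM4B-813 and 8.50 and 5.58 with shKDM4B-814, against no peak in either shCtrl library. At 6 of the 10, these sites among them, all 4 hairpin libraries had higher folds than both shCtrl libraries, counting no peak as below any peak. At the other 4 the values overlapped. In LHCN myoblasts 6 of the 10 had a peak in both libraries with PAX3-FOXO1 and in both with the vector. The remaining 4, among them the one on chromosome 3, had no peak in any LHCN library. The part that the lower share of shared regions listed with shCtrl has in these counts was not tested.

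The leading lost sites were all listed in the hairpin experiment: the 10 had a peak in each of its 6 libraries. The site at chr17:18966746-18967017 had folds of 46.2 and 54.5 with shKDM4B-813 and 48.7 and 56.3 with shKDM4B-814, against 24.1 and 26.0 with shCtrl. It was the 1 site of the 10 at which all 4 hairpin libraries had higher folds than both shCtrl libraries. At the other 9 the values overlapped. The site at chr7:44029576-44030213 had 17.4 and 11.5 with shKDM4B-813 and 27.4 and 22.8 with shKDM4B-814, against 20.8 and 23.5 with shCtrl. None of these sites, absent or near absent with the compound, was missing with either hairpin. In LHCN, 9 and 9 of the 10 were listed with PAX3-FOXO1, against 7 and 8 with the vector.

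**Figure D2:**
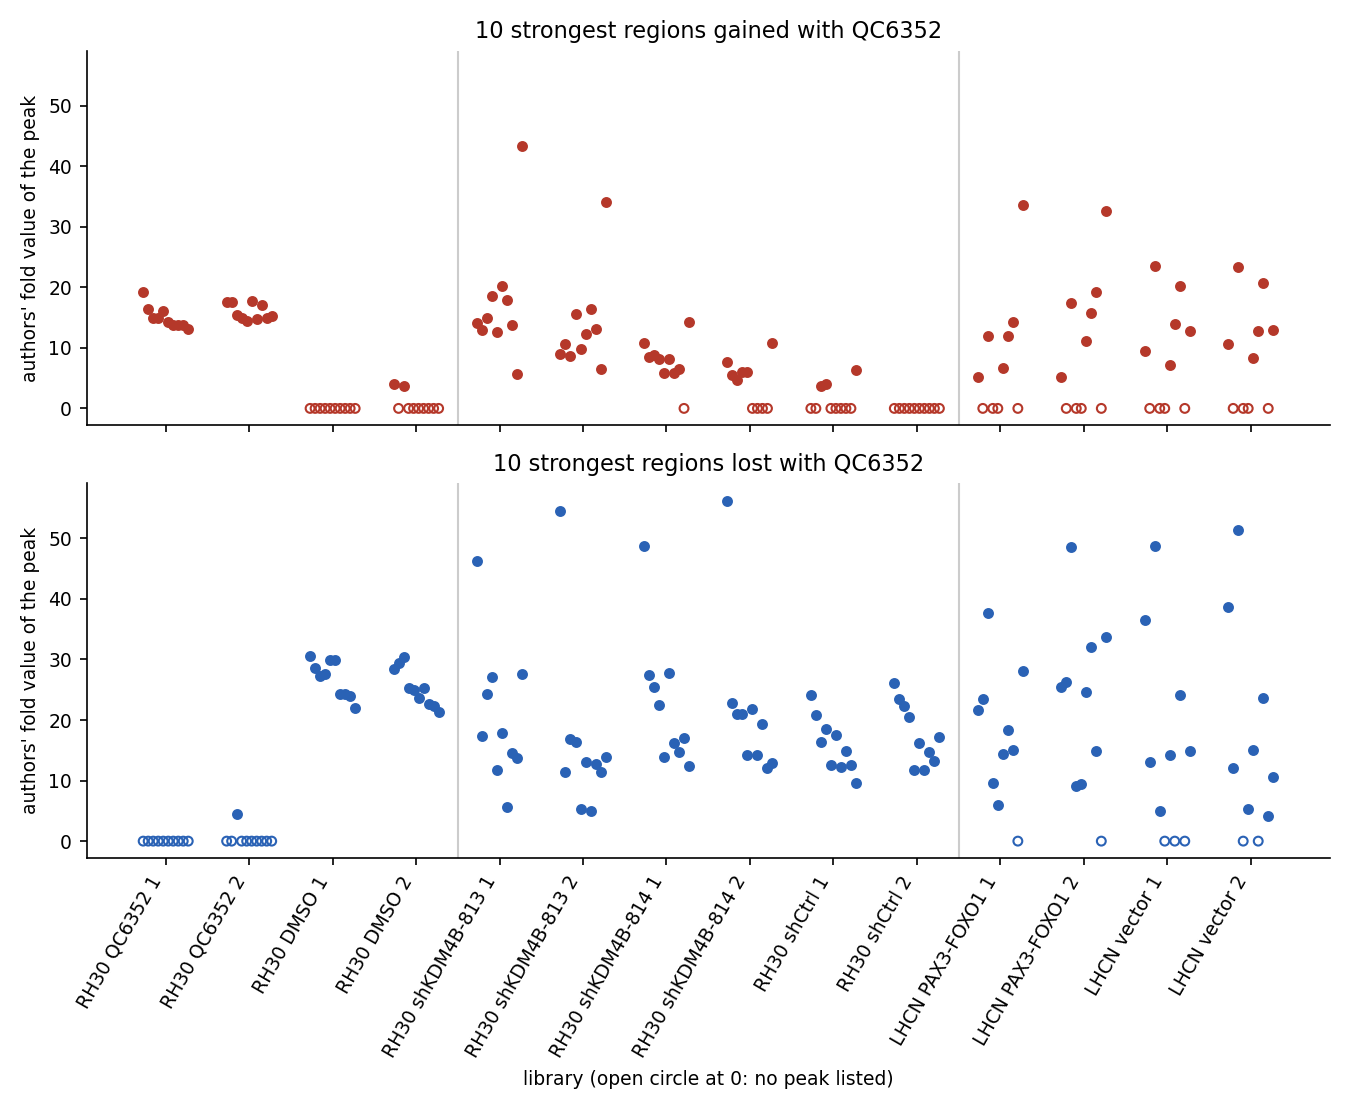
The authors' fold value (a ratio within each list) of the 10 strongest gained (top) and 10 strongest lost (bottom) regions in each of the 14 libraries; an open circle at 0 marks a library with no listed peak. Of the 10 gained regions, 10 and 10 were listed with shKDM4B-813, 9 and 6 with shKDM4B-814 and 3 and 0 with shCtrl, whereas the 10 lost regions were listed in each of these 6 libraries.

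Widening the view to the 106 gained and 127 lost regions of percentile 80 or more gave similar proportions in the deposited lists. Of the 106 strong gained regions, 103 and 98 were listed with shKDM4B-813 and 73 and 44 with shKDM4B-814, against 17 and 9 with shCtrl. Over all regions the deposited lists had a peak at 55.0% and 54.1% with shKDM4B-813 and 45.0% and 42.1% with shKDM4B-814, against 48.4% and 50.9% with shCtrl. The lists of shKDM4B-814 were the shortest of the experiment, at 99660 and 93488 peaks. Those of shKDM4B-813, at 140342 and 138884 peaks, were similar in length to those of shCtrl, at 135927 and 146395. Of the 127 strong lost regions, 5 and 47 had a weaker deposited peak with QC6352. In the hairpin experiment 126 and 124 of them were listed with shKDM4B-813 and 127 and 127 with shKDM4B-814, against 124 and 126 with shCtrl. In LHCN the strong lost regions were listed 105 and 104 times with PAX3-FOXO1, against 74 and 72 times with the vector. The strong gained regions were listed 73 and 75 times with PAX3-FOXO1, against 71 and 69 times with the vector. Over all regions the deposited LHCN lists had a peak at 50.1% and 49.5% with PAX3-FOXO1, against 46.5% and 46.6% with the vector. Over the shared regions it was 86.8% and 86.6% with PAX3-FOXO1, against 81.9% and 81.9% with the vector. The percentile of 80 was chosen with the values known, so these counts carry no test.

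The whole classes, made up mostly of weak sites, were listed in smaller shares. In lists trimmed to 93488 peaks, 26.5% ± 6.37 of gained regions had a peak with the 2 hairpins (SD, n = 4), against 33.5% ± 0.243 with shCtrl (SD, n = 2; exact permutation test over the 6 libraries, two-sided, p = 0.267). For lost regions the shares were 42.8% ± 5.47 with the hairpins and 33.1% ± 2.02 with shCtrl (exact permutation test, two-sided, p = 0.133). Adjusted over these 2 values by Benjamini-Hochberg, p was 0.267 for both, and this design allows no raw p below 0.0667. The share of lost regions was higher in 4 of 4 hairpin libraries than in either shCtrl library, whereas the gained shares overlapped: shKDM4B-813 had 28.8% and 34.4%, shKDM4B-814 had 22.1% and 20.7%, and shCtrl had 33.3% and 33.6%. Neither difference passed the test. The 4 hairpin libraries are 2 of each hairpin, so their SD includes the difference between the hairpins, which the permutation test does not take into account. Over all regions the shares were 43.05% with the hairpins and 40.9% with shCtrl, and over the shared regions 90.8% and 81.3%, with no overlap between the groups in either case, so such a separation was not confined to the lost class. In the lists as deposited the lost shares overlapped (50.7% ± 5.84 with the hairpins, n = 4, against 43.1% ± 3.13 with shCtrl, n = 2).

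Calls of the 2 experiments, which share no library, overlapped in both the same and the opposite direction. On these regions shKDM4B-813 against shCtrl gave 8.18% gained and 5.82% lost, and shKDM4B-814 against shCtrl gave 5% gained and 4.51% lost. Regions gained with both QC6352 and shKDM4B-813 numbered 1823, which is 16.5% of the QC6352 gains and 13.1% of the hairpin gains. Regions gained with QC6352 and lost with shKDM4B-813 numbered 1626, or 14.7% of the QC6352 gains and 16.4% of the hairpin losses. For shKDM4B-814 the opposite direction was the larger: 483 regions were gained with both (4.37% and 5.66% of the lists), and 1451 were gained with QC6352 and lost with the hairpin (13.1% and 18.8%). With shKDM4B-813, 655 regions were lost in both experiments (5.32% and 6.59%). With shKDM4B-814 it was 272 (2.21% and 3.53%). Losses with QC6352 that were gains with a hairpin numbered 1082 in the shKDM4B-813 comparison (8.79% and 7.75%) and 1115 in that of shKDM4B-814 (9.06% and 13.1%). The hairpin calls share the shCtrl libraries with each other.

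Sites present in all 4 libraries were compared by the normal score of the within-list rank, on which a difference of 1 is 1 standard deviation of a full list. Of the 48514 regions, limma found 451 ranked higher with QC6352, or 0.93%, and 433 ranked lower, or 0.893%, at a Benjamini-Hochberg adjusted p below 0.05. The median difference was 1.59 among the higher and −1.56 among the lower regions, against −0.05 over all shared regions. Both QC6352 libraries lay above both DMSO libraries in 23.3% of shared regions and below both in 28.8%. At the limit, the last call had an adjusted p of 0.0499 and a difference of −1.74, and the first region outside had a difference of 1.66. The ranked calls depended on the fit. A fit with neither the trend nor the robust option called 0 regions in both directions, with 9149 at an unadjusted p below 0.05, against 9677 in the fit reported. Lists as deposited gave 1392 higher and 745 lower. Leaving out the first or second DMSO library left 190 or 82 higher and 17 or 9 lower, whereas leaving out the first or second QC6352 library gave 6279 or 7497 higher and 9406 or 9958 lower. In each of these fits the lone library was assumed to vary like the other group.

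Among the regions ranked higher, the largest difference was at chr1:219873172-219873606. Its percentiles were 83.0 and 87.4 with QC6352, against 3.24 and 4.32 with DMSO. The difference was 2.83 (SE 0.46, limma adjusted p 0.0336). It was among the weakest peaks kept with DMSO. Another site of that chromosome, chr1:216637679-216638188, stood at 97.2 and 98.5 with QC6352, against 19.9 and 30.7 with DMSO (difference 2.71, SE 0.28, limma adjusted p 0.0262). The site chr1:59604936-59605946 stood at 97.2 and 98.0 with QC6352, against 13.6 and 30.7 with DMSO (difference 2.79, SE 0.31, limma adjusted p 0.0262). These 2 sites were among the strongest few percent of the QC6352 lists.

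Another large upward change was at chr17:69419977-69420824, with folds of 25.1 and 21.8 with QC6352, against 6.64 and 5.41 with DMSO, and a difference of 2.62. The site chr5:147390877-147391703 had 19.7 and 23.7 with QC6352, against 5.98 and 5.41 with DMSO. The site chr6:73819312-73819854 had 16.7 and 23.3 with QC6352, against 5.31 and 5.41 with DMSO. In the hairpin lists these 3 had higher fold values in all 4 hairpin libraries than in both shCtrl libraries, as did 7 of the 10 largest upward sites, counting no peak as below any peak. The chromosome 17 site had 42.1 and 22.5 with shKDM4B-813 and 15.8 and 11.6 with shKDM4B-814, against 8.17 and 6.60 with shCtrl. The chromosome 5 site had 32.0 and 20.1 with shKDM4B-813 and 14.3 and 5.15 with shKDM4B-814, against no peak with shCtrl. The chromosome 6 site had 12.6 and 11.9 with shKDM4B-813 and 6.95 and 4.72 with shKDM4B-814, and was not listed with shCtrl either. At the other 3 the values overlapped. The largest change, chr1:219873172-219873606, had 17.4 and 16.8 with shKDM4B-813 and 6.57 and 8.16 with shKDM4B-814, against 6.69 and 6.97 with shCtrl. The second largest, chr1:59604936-59605946, had 10.9 and 7.79 with shKDM4B-813 and 6.57 and no peak with shKDM4B-814, against no peak and 5.50 with shCtrl. Folds of different lists share no scale, so these are values side by side. The share of all shared regions with such an order was not computed, so the count of 7 has nothing to be set against. In the deposited lists, shCtrl had a peak at 85.6% of all shared regions on average, against 93.6% with the hairpins.

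The other sites of that set were at chr6:152410861-152411453 and chr6:51973676-51974369, at chr4:100684813-100685305 and at chr3:76112182-76112673, with differences of 2.61 to 2.65. All 10 were listed in both shKDM4B-813 libraries and 9 and 9 in the shKDM4B-814 libraries, against 3 and 3 in the shCtrl libraries. In LHCN 8 and 8 were listed with PAX3-FOXO1, against 7 and 8 with the vector.

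The largest downward change was at chr5:149187730-149188669. Its percentiles were 1.95 and 4.42 with QC6352, against 89.1 and 92.8 with DMSO, a difference of −3.23 (SE 0.44, limma adjusted p 0.0262). With the compound it was tied with the weakest peaks kept in both lists. The site chr1:220872490-220873732 stood at 1.95 and 23.3 with QC6352, against 97.3 and 93.8 with DMSO (difference −3.13, SE 0.47, limma adjusted p 0.0292). The site chr4:7000908-7001852 had folds of 5.46 and 4.75 with QC6352, against 37.5 and 36.5 with DMSO. It stood at percentiles 35.6 and 13.9 with QC6352, against 97.8 and 98.2 with DMSO, a difference of −2.78. All 3 were strong DMSO sites still listed in both QC6352 libraries.

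Further downward sites were at chr6:89910397-89910892 (difference −2.89), at chr2:36757677-36758377 (−2.86), at chr4:115393530-115394214 (−2.68) and at chr14:91840820-91843260 (−2.61). The last 3 were at chr9:125796296-125796892 and at chr3:13046737-13047449 and chr3:123492339-123492935, with differences of −2.58 to −2.59. All 10 downward sites had a peak in each of the 6 hairpin-experiment libraries. The chromosome 5 site had folds of 10.1 and 9.02 with shKDM4B-813 and 13.1 and 11.6 with shKDM4B-814, against 14.5 and 16.1 with shCtrl. It had no peak in any LHCN library. It was the 1 site of the 10 at which all 4 hairpin libraries had lower folds than both shCtrl libraries. At 2 sites all 4 had higher folds. At chr2:36757677-36758377 they were 8.51 and 7.79 with shKDM4B-813 and 14.3 and 11.2 with shKDM4B-814, against 5.20 and 6.60 with shCtrl. At chr9:125796296-125796892 they were 17.0 and 10.7 with shKDM4B-813 and 10.4 and 9.02 with shKDM4B-814, against 7.06 and 8.44 with shCtrl. At the remaining 7 the hairpin and shCtrl values overlapped, so the downward sites had no common order in the hairpin lists.

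**Figure D3:**
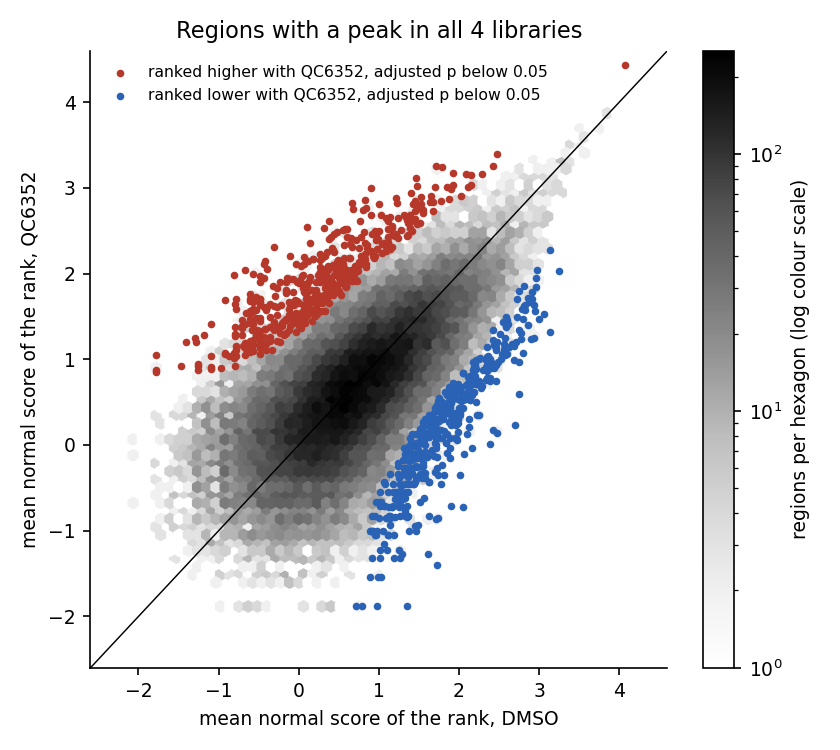
Mean normal score of the within-list rank with QC6352 (y axis) against DMSO (x axis) for the 48514 regions with a peak in all 4 libraries; grey shading gives the number of regions per hexagon on a log colour scale and the line marks equal rank. The 451 regions ranked higher (red) and 433 ranked lower (blue) at an adjusted p below 0.05 lie at median differences of 1.59 and −1.56.

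The ranked regions were also read in the hairpin lists, with no test. Of the 451 regions ranked higher with QC6352, 444 and 444 had a peak with shKDM4B-813 and 441 and 432 with shKDM4B-814, against 352 and 324 with shCtrl. That is 97.6% on average with the hairpins and 74.9% with shCtrl, where all shared regions had 90.8% with the hairpins and 81.3% with shCtrl. Where present, their median percentile was 91.9 and 91.4 with shKDM4B-813 and 83.9 and 77.0 with shKDM4B-814, against 73.7 and 72.5 with shCtrl. Each hairpin library was thus above both shCtrl libraries. Over all shared regions the order was the reverse, at 72.0 and 72.0 with shKDM4B-813 and 72.9 and 74.0 with shKDM4B-814, against 75.9 and 76.4 with shCtrl.

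The regions ranked lower were present almost everywhere in RH30, at 99.9% with the hairpins and 99.5% with shCtrl. Their median percentile was 90.3 and 89.4 with shKDM4B-813 and 93.9 and 94.2 with shKDM4B-814, against 94.9 and 95.7 with shCtrl. The hairpin libraries all lay below the shCtrl libraries, by a few percentiles. Over all shared regions they did so as well, at 72.0 to 74.0 against 75.9 and 76.4, so this order was not particular to the regions ranked lower. The regions ranked lower stood at 54.3 and 59.0 with QC6352, against 95.8 and 96.1 with DMSO. In LHCN these regions were present at 88.1% ± 0.490 with PAX3-FOXO1 and 66.9% ± 0.163 with the vector (SD, n = 2 each). The regions ranked higher had 84.8% ± 0.157 with PAX3-FOXO1 and 75.1% ± 0.157 with the vector. Lost regions had 50.7% ± 0.552 with PAX3-FOXO1 and 39.7% ± 0.109 with the vector, and gained regions had 36.6% ± 1.34 with PAX3-FOXO1 and 36.7% ± 0.256 with the vector. Over all regions the shares were 49.5% with PAX3-FOXO1 and 46.1% with the vector. The shared regions, from which the ranked classes were drawn, had 86.5% with PAX3-FOXO1 and 81.5% with the vector. Only the gained class overlapped between the LHCN groups, and 2 libraries against 2 allow no exact p below 0.33.

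**Figure D4:**
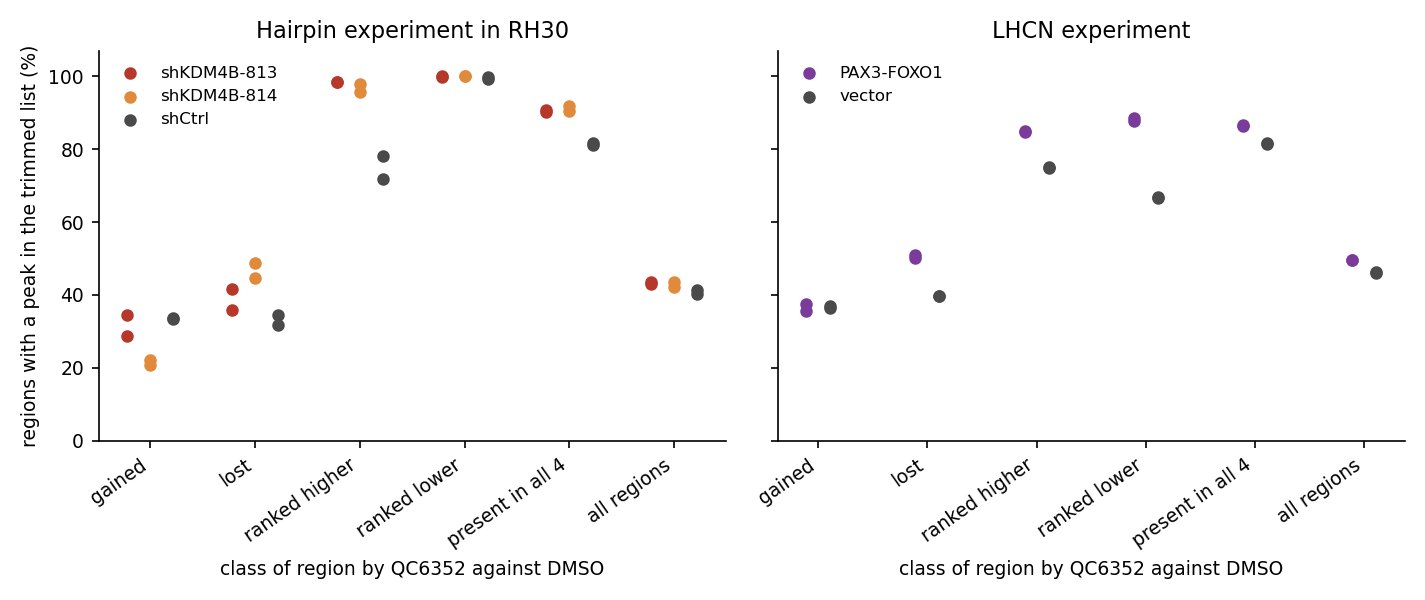
Share of regions (%) of each class with a peak in the trimmed lists of the hairpin experiment (left) and of LHCN (right), 1 point per library. The ranked-higher class averaged 97.6% with the hairpins and 74.9% with shCtrl, and the lost class averaged 50.7% with PAX3-FOXO1 and 39.7% with the vector.

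Gains and losses were unevenly spread over the chromosomes. Gains outnumbered losses on chromosome 9, with 11.8% of its regions gained and 4.55% lost, on chromosome 17, with 11.2% and 2.80%, and on chromosome 19, with 8.72% and 2.70%. Losses led on chromosome 18, with 13.3% lost and 4.32% gained, and on the X chromosome, with 13.2% and 3.97%. Chromosomes 21 and 13 followed, with 11.4% and 11.0% lost. Within shared regions the median difference in normal score was 0.15 on chromosome 17 and 0.13 on chromosome 19, against −0.17 on chromosome 18 and −0.26 on X. It was −0.02 on chromosome 9. The share of a whole list that lay on chromosome 17 was 9.37% and 8.64% with QC6352, against 5.39% and 6.28% with DMSO.

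**Figure D5:**
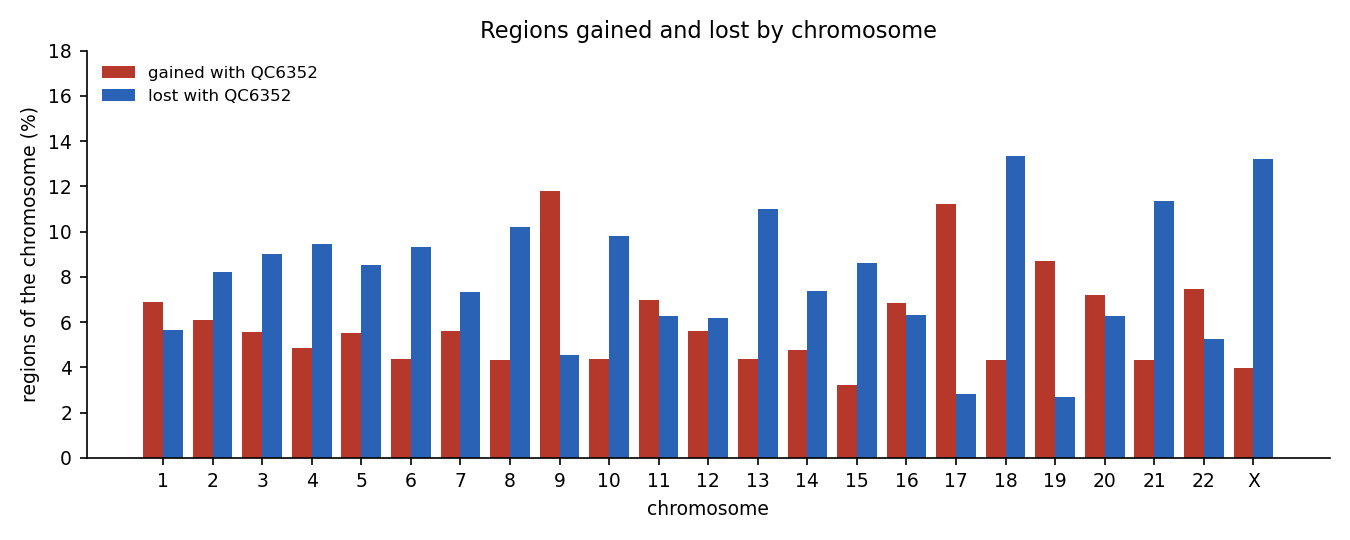
Share of the regions of each chromosome (%) that were gained (red) or lost (blue) with QC6352. Gains led on chromosomes 9 (11.8%), 17 (11.2%) and 19 (8.72%), losses on chromosomes 18 (13.3%) and X (13.2%).

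The balance differed in the windows densest in accessible sites. In the 281 windows of 1 Mb with the most regions (131 to 559 each), 9.48% of regions were gained and 3.73% lost, and 206 windows held more gains than losses. In the 281 windows with the fewest (50 to 62 each), 4.50% were gained and 10.6% lost, and 54 windows held more gains. The share gained was about level over the 3 less dense of 4 classes of windows by density, at 4.50%, 4.19% and 4.64%, while the share lost was 10.6%, 8.91% and 7.34%. Windows under 50 regions were left out. Density was counted over all merged regions, gained, lost and single-library ones included, so the classes are not independent of these shares. The relation of this density to list length, base composition or gene content was not tested.

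The windows with the highest share of gains minus losses lay on 3 chromosomes. On chr9:136000001-137000000, 108 of 400 regions were gained and 2 lost, with 436 and 521 deposited peaks with QC6352, against 131 and 211 with DMSO. The hairpin experiment listed 237 and 432 peaks there with shKDM4B-813 and 231 and 236 with shKDM4B-814, against 529 and 534 with shCtrl. The number of peaks in this window thus differed between the 2 control treatments by more than between QC6352 and shCtrl. Next were chr9:132000001-133000000 (101 gained and 1 lost of 382), chr22:20000001-21000000 (52 and 1 of 206), chr17:17000001-18000000 (101 and 3 of 410) and chr9:137000001-138000000 (85 and 1 of 352). In that order, they had 397 and 479, 299 and 276, 514 and 513, and 405 and 506 deposited peaks with QC6352. With DMSO they had 105 and 159, 108 and 168, 222 and 326, and 121 and 199. With shCtrl they had 418 and 439, 278 and 268, 481 and 472, and 560 and 535. In each of them shCtrl thus lay nearer to QC6352 than to DMSO. Starting from chr9:136000001-137000000 and in the order named, the windows held 67, 69, 48, 102 and 64 shared regions. Among these shared regions there were 2 ranked calls in all, 1 in each direction. Over all shared regions 0.93% were ranked higher and 0.893% lower.

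The windows with the highest share of losses were sparse ones. On chr4:190000001-191000000, 0 of 59 regions were gained and 17 lost, with 6 and 16 deposited peaks with QC6352, against 44 and 51 with DMSO. On chr7:85000001-86000000, 1 of 51 was gained and 14 lost, with 7 and 26 peaks with QC6352, against 44 and 39 with DMSO. The shCtrl libraries were low there too, with 16 and 27 peaks in the first window and 21 and 21 in the second. The hairpins had 37 and 31 (shKDM4B-813) and 27 and 31 (shKDM4B-814) in the first, and 84 and 61 (shKDM4B-813) and 53 and 43 (shKDM4B-814) in the second. The other windows were chr18:77000001-78000000 (1 gained and 15 lost of 56), chr8:134000001-135000000 (0 and 13 of 53) and chr1:106000001-107000000 (2 and 15 of 54). In the last, QC6352 had 10 and 22 peaks and shCtrl 13 and 22, against 44 and 48 with DMSO. On chromosome 8, QC6352 had 18 and 30 and shCtrl 27 and 29, against 44 and 47 with DMSO. In the windows of chromosomes 4, 7, 8 and 1 the control hairpin libraries thus lay nearer to QC6352 than to DMSO. On chromosome 18 they did not, as shCtrl had 117 and 123 peaks, QC6352 32 and 82 and DMSO 50 and 59. There the second QC6352 library had more deposited peaks than either DMSO library. The chromosome 1 window also holds the gained site chr1:106764949-106765419 described above.

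Outside that rule, and chosen after their values were seen, 2 neighbouring windows of chromosome 11 held dense losses in a dense stretch. From 78000001 to 79000000, 4 of 436 regions were gained and 88 lost, with 129 and 358 peaks with QC6352, against 339 and 393 with DMSO. From 79000001 to 80000000, 2 of 313 were gained and 66 lost, with 40 and 115 peaks with QC6352, against 232 and 259 with DMSO. Peaks covered 12.6 and 41.6 kb of the second window with QC6352, against 88.3 and 94.03 kb with DMSO. In the first window they covered 44.1 and 142 kb with QC6352, against 145 and 168 kb with DMSO. There the first QC6352 library was far below both DMSO libraries by either measure, whereas the second lay between them in the number of peaks and just below both in the length covered.

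A stretch of chromosome 12, likewise chosen after its values were seen, had unusually wide peaks. RH30 is known to carry extra copies of the CDK4 region of this chromosome; whether the copies bear on these values was not tested. From 58000001 to 59000000 the widest peak was 210545 and 233697 bp with QC6352, against 77269 and 186079 bp with DMSO. The peaks covered 900.1 and 867 kb with QC6352, against 752 and 808 kb with DMSO, while their number was 169 and 139 with QC6352, against 408 and 350 with DMSO. Fewer and wider peaks thus covered more of the window with the compound. Of its 103 regions, 7 (6.80%) were gained and 0 lost, against 6.48% and 7.21% over all regions, so the share gained was near that of all regions. Its 74 shared regions had a median difference of 0.79, and 8 of them were ranked higher, against 0.93% over all shared regions. In the window before it, chr12:57000001-58000000, the 36 shared regions had a median difference of 0.13, and 1 of them was ranked higher. Of its 51 regions, 2 (3.92%) were gained and 0 lost. The 2 windows together held 30 of the 96 regions wider than 10 kb.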

How the data were processed

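ATAC-seq peak lists of 14 libraries were used, 4 of them in the comparison. The submitters' processing notes name MACS2 2.1.1, SAMtools 1.3.1, Picard 1.65 and BWA 0.7.12-r1039, with build hg19. How reads were filtered, or shifted for the Tn5 cut, is not given in the sources used here. Peaks were called per library. For each peak the authors deposited a score (not used), a fold value (a ratio over background), and −log10 p and −log10 q values; each belongs to its own list, and depth is unknown. Absence means that no peak passed a list's limit.

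The 4 lists were trimmed to the length of the shortest by −log10 q, then fold, then position, and merged at 1 bp of overlap. Tied peaks shared their mean rank. Hairpin and LHCN lists were trimmed within their experiments, to 93488 and 170390 peaks. Shared regions were tested with limma 3.58.1 (R 4.3.3; trend and robust fit, no block) on normal scores of the within-list percentile, with Benjamini-Hochberg adjustment over all 48514. Presence in hairpin libraries was tested by exact permutation over libraries. Sample titles gave the groups and replicate numbers.

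Named were the 10 gained and 10 lost regions with the highest lower percentile, the 10 ranked regions per direction with the largest difference among calls whose groups did not overlap, and the 5 windows of 1 Mb per direction with the largest share of gains minus losses. The regions, lists and rules were chosen with earlier results of these data known. Planned gene lists, motifs, promoter shares and marker checks needed an hg19 genome and annotation and were not run. Alternatives covered list length, limits, overlap, region definition, ranking scale, filters, moderation, ties, replicate blocks and left-out libraries.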

Additional observations from a re-analysis of the deposited data

How the results depend on the processing

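Among the alternatives tried, the 50000 strongest peaks gave 4926 gained and 6413 lost regions, and a limit of −log10 q of 10 gave 3778 gained. Of the 11059 gained and 12307 lost regions of the main setting, 1552 and 2031 were still called with the 50000 strongest peaks. At −log10 q of 10 it was 1576 and 3275, so these limits changed which regions were called and not only their number. Strong peaks (among the 50000 strongest) against no peak in the deposited lists gave 1411 gained and 1492 lost. Leaving out 1 library gave 14523 to 33676 gained and 17731 to 32170 lost regions, since the rule is looser with fewer libraries. Trimming by fold gave the same regions and is not a separate check. Requiring 50% coverage, windows of 200 bp on summits, and, chosen after seeing the data, keeping or dropping all tied peaks moved neither count by over 1.5 times. For regions ranked higher and lower, the lists as deposited gave 1392 and 745, log2 fold values after quantile normalisation gave 791 and 727, and a limma fit with no trend and no robust option gave 0 and 0. Leaving out 1 library gave 82 to 7497 ranked higher and 9 to 9958 ranked lower; the cause was not tested. Ranking by fold gave the same counts as the main fit, 451 and 433, and is likewise not a separate check. Regions with 1 peak per library and a mean percentile of 50 or more kept both counts within 1.5 times. The hairpin comparisons kept their direction under the 9 alternatives that changed 1 choice at a time, with differences (hairpins minus shCtrl, percentage points) of −12.1 to −1.84 for gained and 5.70 to 13.7 for lost regions. Single hairpins in lists as deposited, a change of 2 choices, gave 7.87 with shKDM4B-813, the opposite direction, and −20.5 with shKDM4B-814 for gained regions, and 10.7 and 4.42 for lost regions.

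The replicate numbers gave no evidence of pairing, as deviations of same-numbered libraries correlated at −0.14 over shared regions. With the replicate number as a block, 956 regions ranked higher and 1104 lower. The crossed pairing, added after seeing the data, gave 2580 and 3316.

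The lists hold only peaks above a limit, their depth is unknown, and 2 libraries per group leave little to estimate the spread. Of the peaks tied at the limit, 4100 of 7043 and 9304 of 12471 were kept with QC6352 and 9089 of 11561 in the second DMSO list, by position alone.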
